A study of Mus musculus with 1536 samples.

Results

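Lymphatic endothelial cells (LECs) with *Lyve1* but little *Stab2*, *Fndc1* or *Igfbp5* made up 130 of the adult nasopharyngeal LECs (15.4% of all adult cells, exact 95% interval 13.1–18.1%). They were selected on measured values: *Lyve1* above 1, *Stab2* and *Fndc1* up to 1 and *Igfbp5* up to 2, each as the natural log of 1 plus reads per 10000 reads of the cell (the ln value). The LECs came from the nasopharyngeal mucosa of 30 adult C57BL/6 mice of both sexes (aged 10–12 weeks), which were pooled, sorted for CD31 and PDPN and sequenced as single cells by Smart-seq3, a plate-based full-length cDNA method. No treatment is named for these mice. Because neither mouse nor plate can be read from the labels, all cells are 1 sample, so that SDs describe the spread over cells, no test between cells was made and no p-value is given. The 4 genes of the rule are given as a description only. Aged mice were not analysed here.

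Lymphatic capillaries take up fluid and cells through loose, button-like junctions, and their endothelium carries the hyaluronan receptor LYVE1. In collecting vessels, which have valves and a muscle coat, LYVE1 is low, and precollectors join the vessel types. STAB2 is a scavenger receptor that also binds hyaluronan, FNDC1 is a fibronectin type III domain protein, and IGFBP5 is a secreted protein that binds insulin-like growth factors. The study used *Ptx3* with *Stab2* and *Fndc1* with *Ptn* for its capillary subtypes, *Foxp2* with *Lyve1* for precollecting LECs, and *Cldn11* with or without *Gja4* for valve LECs.

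*Lyve1* was above 1 in 48.3% of all cells. Of these, 31.7% were left out for *Stab2* alone, 12.8% for *Fndc1* alone (52 cells), 8.85% for *Igfbp5* alone (36 cells) and 14.7% for more than 1 of these genes (60 cells). In the 130 cells that remained, *Lyve1* had a lowest ln value of 1.01, a median of 3.07 and a highest of 4.64. The limits did not separate cells without any reads of the capillary genes: *Stab2* reads were found in 64 of the 130 cells (49.2%) and *Fndc1* reads in 44 (33.8%), with highest ln values of 0.992 and 0.965. At the *Stab2* limit, 12 selected cells lay within 0.25 below it and 15 cells that met the other limits lay within 0.25 above it. The nearest cells on both sides of the *Lyve1* limit had 1.01 and 0.981. The selected cells are therefore a range of values, and are called marker-low *Lyve1*+ cells here.

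The marker-low *Lyve1*+ cells were LECs by their shared genes. *Cdh5*, the VE-cadherin gene, was found in 130 of 130 cells with a mean ln value of 1.84 ± 0.580 (SD), against 1.75 ± 0.635 in the other cells. *Prox1*, the transcription factor of lymphatic identity, was found in 96.9% of them and 97.9% of the others, with a mean ln value of 1.60 ± 0.719 against 1.65 ± 0.696. Depth was lower in the marker-low *Lyve1*+ cells. Reads per cell had a median of 225068 (12316–2421840) against 379640 (7433–3524358), and genes per cell a median of 4004 against 4206. The median mitochondrial share was close, at 1.78% and 1.77%. For genes whose shares of cells with reads are compared as a result, the shares are also given after each cell was thinned to 20000 reads, which left out 10 marker-low *Lyve1*+ cells and 41 others. Intervals on shares are exact Clopper–Pearson intervals at 95% and cover counting error only.

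Against all other cells, the marker-low *Lyve1*+ cells had more *Slco2b1*, *Stmn2*, *Enpp3*, *Fgl2* and *Reln*, and less *Clu*, *Slco2a1*, *Ackr3*, *Clca3a1* and *Tek*. The measure was the log2 ratio of mean reads per 10000, with 1 read per 10000 added to both means. It was taken for genes found in at least 30% of either group, without the 4 genes of the rule and without mitochondrial, ribosomal and dissociation-response genes. Of 5522 genes compared, 71 were higher by a log2 ratio of at least 0.3 (1.29% of the genes compared) and 92 were lower by as much (1.67%), and the median over all of them was -0.01. Many of these ratios rest on few cells. When each gene's highest marker-low *Lyve1*+ cell was left out, 29 of the 71 higher genes were still past the limit and 69 of 71 were still above 0. For the 92 lower genes, 78 were still past it without the highest of the other cells.

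**Figure D1:**
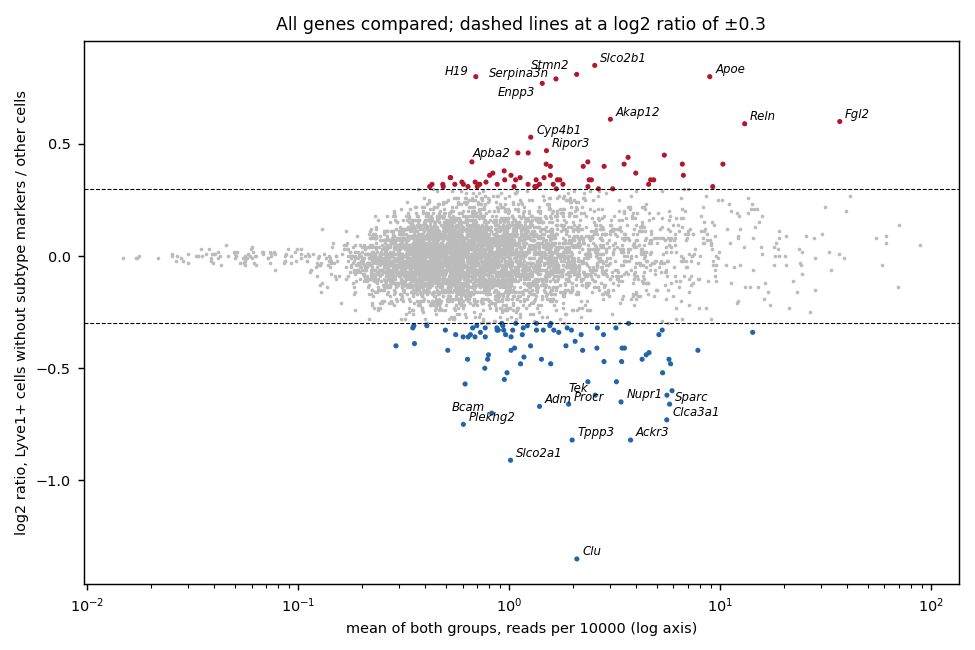
Each point is 1 of 5522 genes, with the mean of both groups in reads per 10000 on a log axis and the log2 ratio of marker-low *Lyve1*+ cells to the other cells on the vertical axis. Red marks the 71 genes at or above 0.3, blue the 92 at or below -0.3, and the 12 genes at each end are named. *Clu* has the lowest ratio at -1.35 and *Slco2b1* the highest at 0.85.

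The label of this group names 7 genes: *Lyve1*, which is part of the rule, and *Slco2b1*, *C3*, *Tgfbi*, *Tnc*, *Fgl2* and *Reln*. Of the last 6, 4 were past the limit against all other cells. *C3*, the central complement component, had a log2 ratio of 0.12, and *Tnc*, which codes for the matrix glycoprotein tenascin C, had 0.08. Both were under the limit. Against the other *Lyve1*+ cells, *Fgl2* was the sole gene of the 6 that was higher by at least 0.3, and *Tnc* was lower, at -0.32.

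*Slco2b1* codes for an organic anion uptake transporter (OATP2B1). Its ln value in the marker-low *Lyve1*+ cells had a median of 1.10 and a highest of 2.99, with 0 in the lowest cells, and in the other cells a median of 0.0191 and a highest of 3.01. The ranges overlapped throughout. The gene was found in 71.5% (62.96–79.1%) and 54.2% (50.5–57.9%) of cells, and in 64.2% and 37.7% after thinning. Mean reads per 10000 were 3.55 ± 4.26 (SD over 130 cells) and 1.53 ± 2.94 (SD over the other cells), a log2 ratio of 0.85. It was 0.85 after thinning and 0.81 without the highest cell. The gene lies at chr7:99657804-99711340 on the minus strand (GRCm38), and exons of 2 genes on the other strand overlap its exons. These genes, *Gm15635* and *Gm34280*, had means of 0.0531 and 0.00161 reads per 10000 in the marker-low *Lyve1*+ cells. A related transporter went the other way. *Slco2a1*, the prostaglandin transporter gene, had a mean of 0.396 ± 1.42 against 1.63 ± 2.86 reads per 10000, a log2 ratio of -0.91, with the gene found in 40.8% and 59.3% of cells (19.2% and 42.3% after thinning).

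*Fgl2* codes for fibrinogen-like protein 2, a membrane prothrombinase that also occurs in a secreted, immunoregulatory form. It was found in nearly every cell of both groups (99.2% and 99.02%), so that its difference was one of level. The ln value ran from 0 to 5.37 with a median of 3.64 in the marker-low *Lyve1*+ cells and from 0 to 5.19 with a median of 3.09 in the others. The groups overlapped, with a difference of mean ln values of 0.60 beside SDs of 0.943 and 1.17. *Reln*, which codes for the secreted glycoprotein reelin, was found in 130 of 130 marker-low *Lyve1*+ cells and in 96.3% of the others. Its ln value had a median of 2.68 (0.0137–3.96) against 2.14 (0–4.16), and its log2 ratio was 0.59. *Tgfbi*, a matrix protein induced by TGF-β, had medians of 0.411 and 0.0376, highest values of 3.52 and 4.17, and a log2 ratio of 0.41.

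Outside the label's genes, *Stmn2*, *Enpp3* and *H19* were among the highest ratios. *Stmn2* codes for stathmin-2, a microtubule-destabilizing protein best known from neurons. It was found in 61.5% (52.6–69.9%) of the marker-low *Lyve1*+ cells and 44.9% (41.2–48.7%) of the others, with a log2 ratio of 0.81. *Enpp3*, an ectonucleotide pyrophosphatase, was found in 68.5% (59.7–76.3%) and 45.9% (42.2–49.7%), with a log2 ratio of 0.77. After thinning, *Stmn2* was found in 60 of 120 marker-low *Lyve1*+ cells and 31.4% of the others and *Enpp3* in 56.7% and 32.6%, and the ratios were 0.87 and 0.78. *H19*, an imprinted long non-coding RNA, was found in 31.5% (23.7–40.3%) of the marker-low *Lyve1*+ cells and 16.4% (13.8–19.4%) of the others (26.7% and 9.69% after thinning). Its mean was 1.15 ± 2.82 against 0.237 ± 1.03 reads per 10000, a log2 ratio of 0.80, and 0.71 without the highest cell. The exon of a microRNA (*Mir675*) lies within it on the same strand, so reads of both were not told apart.

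Some other high ratios rested on 1 or a few cells. *Apoe*, the apolipoprotein E gene, had a log2 ratio of 0.80, but 83.3% of all its reads per 10000 over the marker-low *Lyve1*+ cells came from 1 cell. Without that cell the log2 ratio was -1.29, and the upper quartile of the ln value was 0.510 in the marker-low *Lyve1*+ cells against 1.49 in the others. That direction held against all other cells. Without the same cell, the log2 ratio was 0.47 against the other *Lyve1*+ cells, 0.27 against cells with *Stab2* above 1 and 0.94 against cells with *Fndc1* and *Lyve1* above 1. *Serpina3n*, an acute-phase serine protease inhibitor, had 30.7% of its sum in 1 cell and went from 0.79 to 0.45 without it.

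The genes with the lowest ratios were led by *Clu*, which codes for clusterin, an extracellular chaperone and complement regulator. Its ln value ran from 0 to 2.23 with a median of 0 in the marker-low *Lyve1*+ cells and from 0 to 4.23 with a median of 0.0743 in the others. Means were 0.739 ± 1.69 and 3.44 ± 7.42 reads per 10000, a log2 ratio of -1.35, and -1.47 after thinning. High *Clu* cells were thus rare among the marker-low *Lyve1*+ cells, of which 90% lay at or under 1.38. *Ackr3*, a scavenging receptor for CXCL12 and adrenomedullin, had a log2 ratio of -0.82. It was at -0.16 when cells with *Igfbp5* above 2 were left out of the comparison. *Adm*, the adrenomedullin gene, had -0.67. *Procr*, the endothelial protein C receptor, had -0.66, and *Tek*, the TIE2 receptor of the angiopoietins, had -0.62. *Sparc*, a matricellular protein, had -0.66 and *Bgn*, the proteoglycan biglycan, had -0.52. For *Sparc* the direction depended on the *Stab2*+ cells, without which the ratio was 0.33. For *Tppp3*, a tubulin-binding protein, the ratio of -0.82 understated the difference in most cells, because 64.9% of its sum in the marker-low *Lyve1*+ cells came from 1 cell. It was -1.44 without that cell, but 0.21 when cells with *Fndc1* above 1 were left out of the comparison.

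The other *Lyve1*+ cells, 32.9% of all cells, were a closer comparison than all other cells. Against them 49 of 5554 genes were higher (0.882%) and 77 were lower (1.39%). *Reln* was at a log2 ratio of 0.03 and *Tgfbi* at 0.07, and *Slco2b1* at 0.24 was under the limit of 0.3. *Fgl2* (0.43), *Stmn2* (0.44), *Enpp3* (0.32) and *H19* (0.58) were still past it. The highest ratios here were those of *Apoe*, described above, and *Plat*, the tissue plasminogen activator gene (1.07, and 0.88 without its highest cell). *Gem* (0.59), *Rnd1* (0.58) and *Ednrb* (0.55) were also higher. *Tppp3* (-1.63), *Ucp2* (-0.84) and *Gm525* (-0.74) were among the lowest. *Clu* was at -0.50, *Slco2a1* at -0.46 and *Ackr3* at -1.005, while *Clca3a1* (0.01), *Bcam* (-0.06) and *Procr* (-0.00), lower against all other cells, were level. Of the 71 genes that were higher against all other cells, 26 were also higher against the other *Lyve1*+ cells, and of the 92 lower genes 33 were also lower. These comparisons share the marker-low *Lyve1*+ cells and part of the others.

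**Figure D2:**
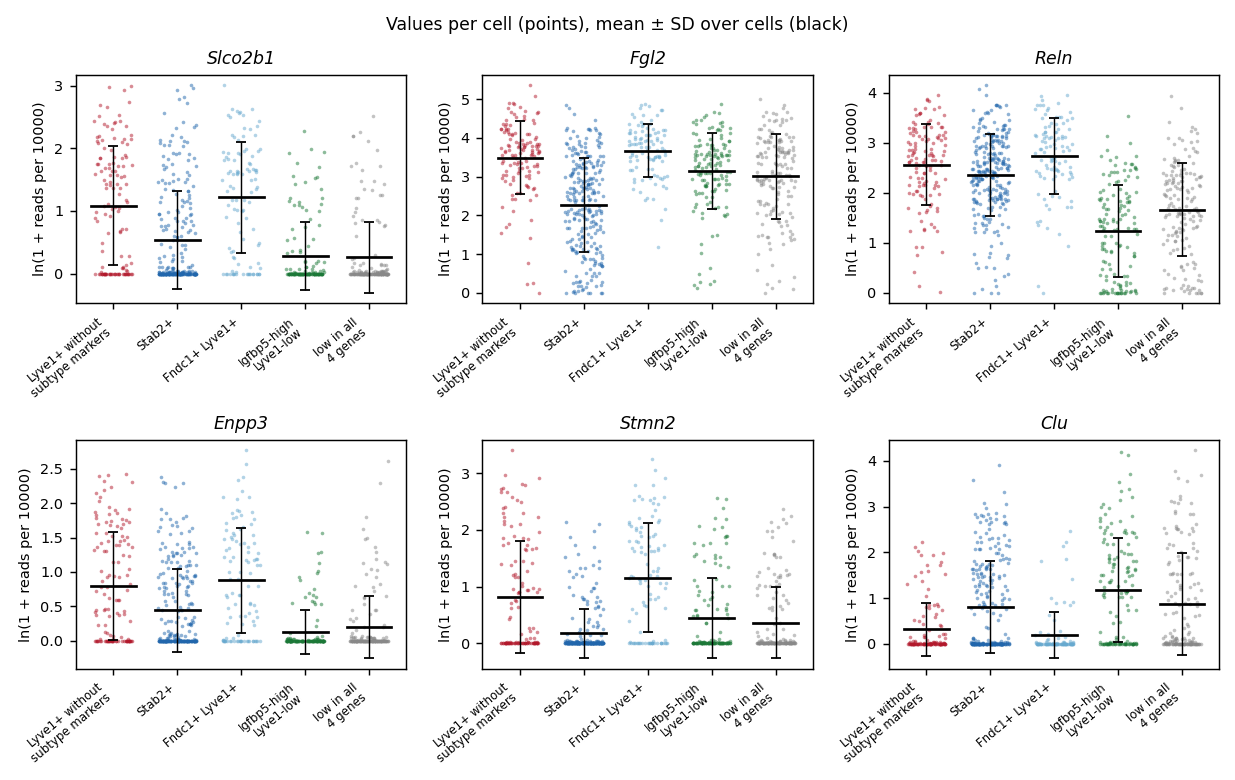
Values per cell of 6 genes as ln(1 + reads per 10000) in the 130 marker-low *Lyve1*+ cells, the *Stab2*+ cells, the *Fndc1*+*Lyve1*+ cells, the *Igfbp5*-high *Lyve1*-low cells and the cells low in all 4 genes; bars are the mean and error bars the SD over cells. For *Slco2b1*, *Fgl2*, *Reln* and *Enpp3* the marker-low *Lyve1*+ cells lie near the *Fndc1*+*Lyve1*+ cells, *Stmn2* is higher in the latter (log2 ratio -0.34), and in every panel the ranges overlap.

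A further 4 like groups of cells, cut by the same genes, were set beside the marker-low *Lyve1*+ cells: *Stab2*+ cells (*Stab2* above 1, 31.2% of all cells), *Fndc1*+*Lyve1*+ cells (both above 1, 12.2%), *Igfbp5*-high *Lyve1*-low cells (*Igfbp5* above 2 and *Lyve1* up to 1, 16.7%) and cells low in all 4 genes (19.8%). The first 2 groups share 11 cells. All 4 comparisons use the same 130 marker-low *Lyve1*+ cells, so their ratios are given side by side and no overlap between them is read.

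Against the *Stab2*+ cells, 3.33% of 5578 genes were higher and 4.50% were lower. *Stmn2* (log2 ratio 1.52), *Fgl2* (1.33), *Nts*, which codes for the neuropeptide neurotensin (1.27), and *Tgfbi* (1.14) were higher. *Plat* had 1.36, with 17.2% of its sum in 1 cell. *Ackr3* (0.51) and *Clca3a1* (0.49), lower against all other cells, were higher here. The matrix genes *Sparc* (-1.54) and *Thbs1*, which codes for thrombospondin-1 (-1.29), were lower, as were *Gm525* (-1.57) and the semaphorin gene *Sema7a* (-1.12). Of 6 compared genes listed for *Ptx3*+ capillary LECs, 5 were lower (*Ptx3*, *Aqp1*, *Mrc1*, *Itih5* and *Gm525*) and none was higher. Of these, *Ptx3* reached the detection share only in the *Stab2*+ cells, so its direction carries no weight. The study pairs *Ptx3* with *Stab2*, the gene by which this group was cut. All 3 compared genes listed for *Ptx3*- capillary LECs (*Cyp4b1*, *Ucp2* and *Piezo2*) were higher. The lists were chosen with these data known.

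Against the *Fndc1*+*Lyve1*+ cells, 3.87% of 5735 genes were higher and 4.69% were lower, and the capillary lists lay the other way. *Tppp3* (-2.75), *Ucp2*, a mitochondrial uncoupling protein (-1.81), *Ackr3* (-1.78) and *Tnxb*, a tenascin (-1.53), were lower. Of the *Ptx3*- capillary genes, *Cyp4b1*, *Ucp2* and *Piezo2* were lower. *Ptn* was lower too, but it was found in 18.5% of the marker-low *Lyve1*+ cells. It reached the detection share only in the *Fndc1*+*Lyve1*+ cells, so its direction carries no weight. *Sparc* (1.34), the water channel gene *Aqp1* (1.18), *Gm525* (1.14) and *Igfbp7* (0.90) were higher. *Slco2b1*, *Enpp3* and *Fgl2*, at -0.08, -0.08 and -0.07, were at nearly the same level in both groups, and *Reln* was at -0.20. Of the other label genes, *Tgfbi* was lower (-0.85), and *C3* (0.30) and *Tnc* (0.50) were higher. *Stmn2* was at -0.34, lower in the marker-low *Lyve1*+ cells than in this group.

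Against the *Igfbp5*-high *Lyve1*-low cells, 6.19% of 5750 genes were higher and 5.15% were lower. The largest ratio was that of *Aqp1*, with a mean of 33.97 against 3.07 reads per 10000 (log2 ratio 3.10), followed by *Gm525* (1.76), *Reln* (1.69) and *Gpihbp1* (1.68), which codes for the endothelial anchor of lipoprotein lipase. All 6 label genes outside the rule were higher here, and so were 16 of 32 compared matrix genes, against 5 that were lower. *Clu* (-1.91), *Ackr3* (-1.55), the laminin receptor gene *Bcam* (-1.53), *Ptn* (-1.51) and *Clca3a1* (-1.45) were lower. *Bcam* and *Ptn* were found in 28.5% and 18.5% of the marker-low *Lyve1*+ cells and in 79.4% and 55.3% of this group. They were thus compared only through this group. Of 7 compared genes listed for collecting and precollecting LECs, 6 were lower (*Foxp2*, *Clca3a1*, *Esam*, *Cd9*, *Bmp4* and *Lama5*) and none was higher. Of this list, *Lama5* was compared only through the *Igfbp5*-high *Lyve1*-low cells. Against the *Stab2*+ cells this list lay the other way, with 4 of 6 higher (*Clca3a1*, *Apoe*, *Esam* and *Cd9*) and *Bmp4* lower. *Apoe* was at 0.27 there without its highest cell.

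Against the cells low in all 4 genes, 280 of 5594 genes were higher (5.01%) and 200 were lower (3.58%). These groups share the low values of *Stab2*, *Fndc1* and *Igfbp5* and were split by *Lyve1*. *Aqp1* (2.62), *Slco2b1* (1.46), *Gpihbp1* (1.29) and *Cyp4b1* (1.17) were higher, and all 5 compared *Ptx3*+ and all 3 compared *Ptx3*- capillary genes were higher. *Cyp4b1* was found in 34.6% of the marker-low *Lyve1*+ cells and 25.1% of this group, so it was compared only through the former. *Gdf15*, a stress-induced cytokine (-1.63), *Clu* (-1.59), *Slc41a1*, a magnesium transporter (-1.52), and *Clca3a1* (-1.13) were lower. *Gdf15* was at 0.51 against the *Stab2*+ cells.

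**Figure D3:**
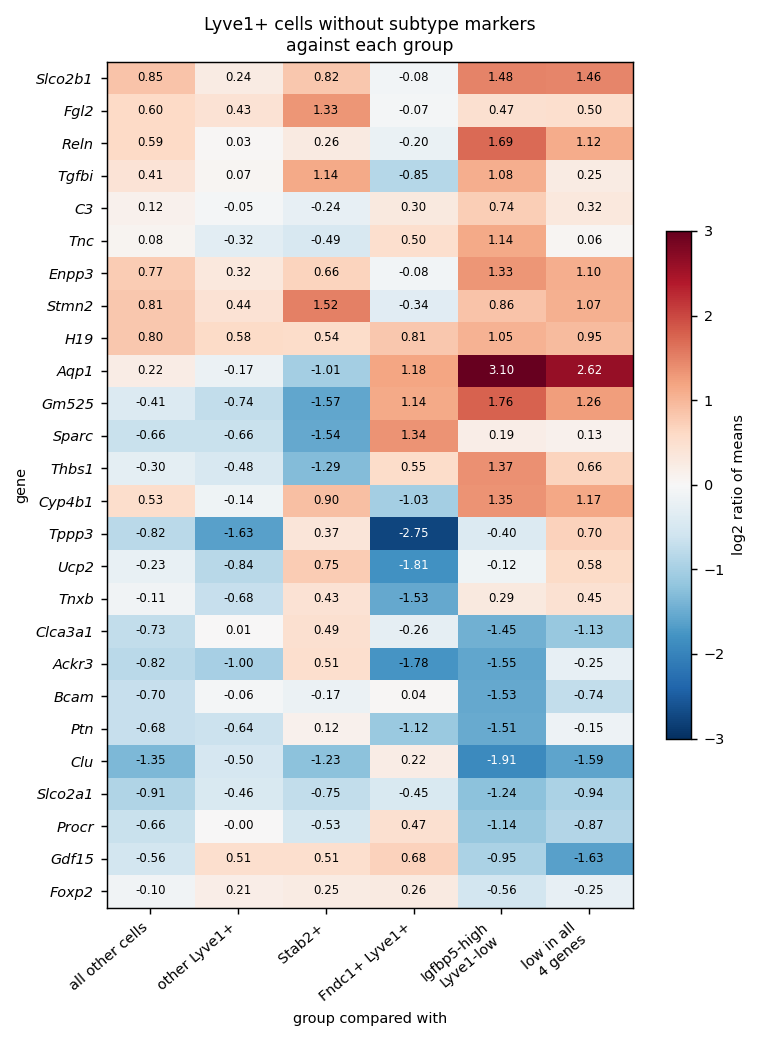
Log2 ratios of mean reads per 10000 in the marker-low *Lyve1*+ cells to each of 6 groups (columns) for 26 genes (rows), printed in each box and coloured from blue (lower) to red (higher). *Clu* is below 0 in every column but that of the *Fndc1*+*Lyve1*+ cells (0.22), and *Aqp1* runs from -1.01 against *Stab2*+ cells to 3.10 against *Igfbp5*-high *Lyve1*-low cells.

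For most genes that parted the other groups, the marker-low *Lyve1*+ cells lay between them. Of the genes with a log2 ratio past 0.3 either way between *Stab2*+ and *Igfbp5*-high *Lyve1*-low cells, the mean of the marker-low *Lyve1*+ cells was between both means for 82.6%, above both for 92 genes and below both for 71. Between *Stab2*+ and *Fndc1*+*Lyve1*+ cells it was between for 85.9% of such genes, and between *Fndc1*+*Lyve1*+ and *Igfbp5*-high *Lyve1*-low cells for 68.1%. The genes were picked because the groups differ in these same data, so that the mean of a further group often falls between. No reference share was taken, and no conclusion is drawn from these shares. They also cannot tell a mixture of cells from cells of intermediate level.

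*Aqp1* showed how wide the marker-low *Lyve1*+ cells were. Its ln value had quartiles of 0.476, 2.81 and 3.89, and it was above 1 in 87 of 130 cells (66.9%, 58.1–74.9%). In the *Stab2*+ cells it was above 1 in 91.3% (87.2–94.4%), in the *Fndc1*+*Lyve1*+ cells in 50.5% (40.5–60.5%), and in the *Igfbp5*-high *Lyve1*-low cells in 9.22% (5.001–15.3%). Across the marker-low *Lyve1*+ cells, Spearman's rho of *Aqp1* was 0.47 with *Lyve1*, 0.46 with *Igfbp4*, -0.35 with *Cav1* (caveolin-1) and -0.31 with *Fgl2*. These values describe 130 cells of 1 sample. After thinning, rho was 0.45, 0.44, -0.41 and -0.33 over 120 cells, and rho of *Aqp1* with total reads was -0.12. Of all genes ranked, *Aqp1* had the highest rho with *Lyve1*, followed by *Mmrn1* (0.38), a multimerin of LECs.

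**Figure D4:**
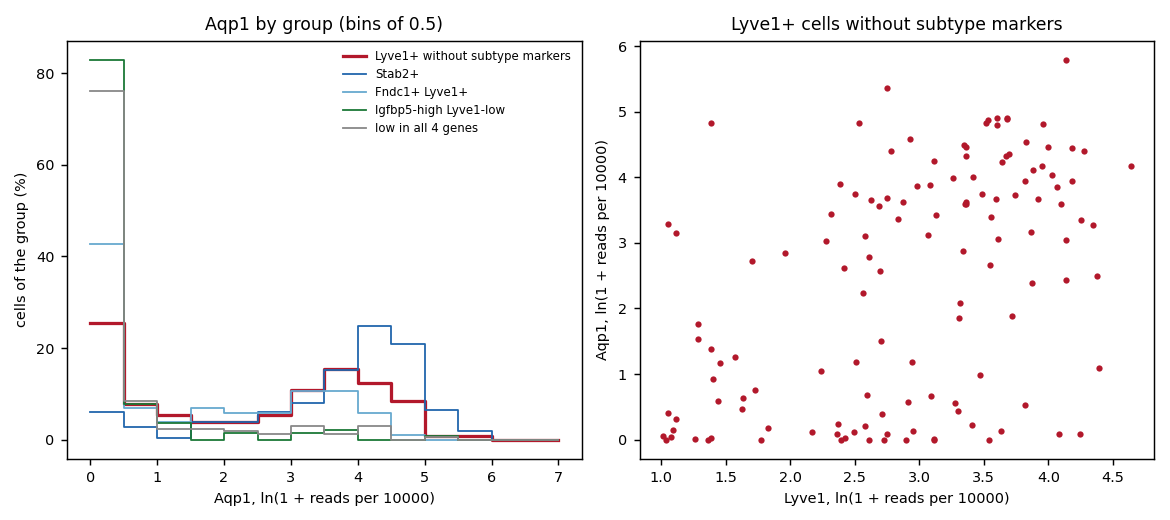
Left, the share of cells of each group in bins of 0.5 of the *Aqp1* ln value; right, *Lyve1* against *Aqp1* in the 130 marker-low *Lyve1*+ cells, both as ln(1 + reads per 10000). The marker-low *Lyve1*+ cells (red) hold cells in the lowest bin and cells near 4, where most *Stab2*+ cells lie.

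*Foxp2*, the forkhead factor that the study pairs with *Lyve1* for precollecting LECs, was found in 69 of the 130 marker-low *Lyve1*+ cells (53.1%, 44.1–61.9%) and in 64.5% of the other cells (60.8–67.99%). The mean ln value was 0.397 ± 0.562 against 0.463 ± 0.571, and the log2 ratio of -0.10 was under the limit. The share was close to that in the other *Lyve1*+ cells (51.99%, 45.9–58.001%), *Stab2*+ cells (49.4%, 43.2–55.6%) and *Fndc1*+*Lyve1*+ cells (52.4%, 42.4–62.4%). It lay below the shares in *Igfbp5*-high *Lyve1*-low cells (87.2%, 80.6–92.3%) and in cells low in all 4 genes (76.05%, 68.8–82.3%). After thinning the shares were 38.3% (29.6–47.6%) in the marker-low *Lyve1*+ cells, 30.5% and 35.7% in the *Stab2*+ and *Fndc1*+*Lyve1*+ cells, and 69.9% (61.4–77.4%) and 59.7% (51.7–67.4%) in the last 2 groups. The order of the *Lyve1*-low groups above the others was the same, and neighbours among the *Lyve1*+ groups had intervals that overlapped.

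Over all cells, *Foxp2* was found in 52.3% (47.4–57.3%) of cells with *Lyve1* above 1 and in 72.4% (67.96–76.6%) of cells at or under 1. The cells with both genes, 25.3% of all, were spread over the groups. The marker-low *Lyve1*+ cells held 69 (32.4%), *Stab2*+ cells 76 (35.7%), *Fndc1*+ cells 54 (25.4%) and *Igfbp5*-high cells 49, some of them in more than 1 group. Among the 85 cells with *Igfbp5* above 2 and *Lyve1* above 1, a group set beside the others after its values had been seen, the share was 57.6% (46.4–68.3%). At an ln value above 1, *Foxp2* was in 21 marker-low *Lyve1*+ cells (16.2%, 10.3–23.6%) and in 11.2% (7.73–15.5%) of the other *Lyve1*+ cells. No cell type that should lack *Foxp2* was part of the sort, so a level of reads from free RNA could not be set.

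**Figure D5:**
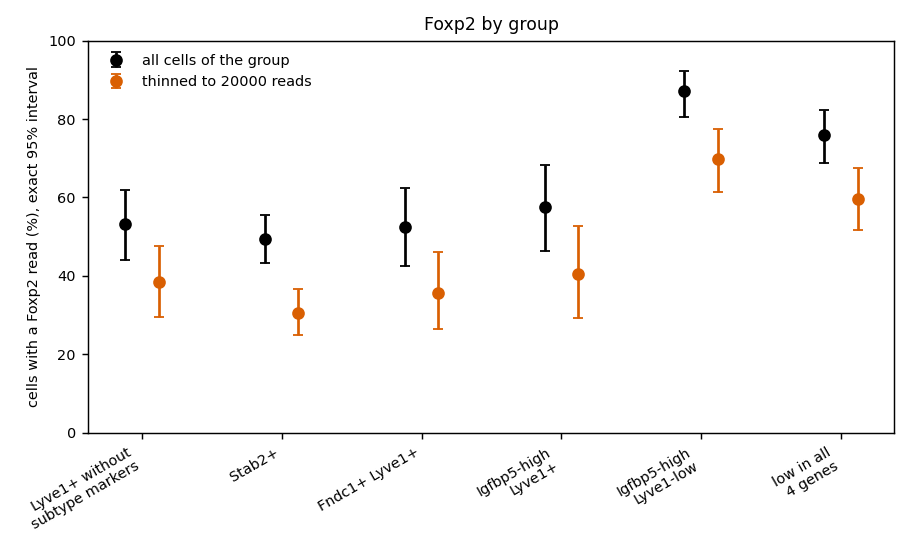
Share of cells with at least 1 *Foxp2* read in 6 groups, with exact 95% intervals, over all cells of each group (black) and after thinning to 20000 reads (orange). The 4 *Lyve1*+ or *Stab2*+ groups lie between 49.4% and 57.6%, below the *Igfbp5*-high *Lyve1*-low cells at 87.2% and the cells low in all 4 genes at 76.05%.

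The other subtype genes of the study were found in part of the marker-low *Lyve1*+ cells. *Cldn11*, a tight junction claudin of valves, was above 1 in 22 cells (16.9%, 10.9–24.5%) against 18.1% (15.4–21.1%) of the others. *Gja4*, which codes for connexin 37, was above 1 in 37 cells (28.5%, 20.9–37.04%) against 28.5% (25.2–31.98%). Both were above 1 in 9 cells (6.92%, 3.21–12.7%). *Ptx3*, the secreted pentraxin 3, was above 1 in 5 cells (3.85%, 1.26–8.75%) and *Ptn*, which codes for the growth factor pleiotrophin, in 4 (3.08%, 0.845–7.69%). In the other cells these shares were 5.20% (3.68–7.09%) and 11.4% (9.14–13.9%). In the ratio of means, *Cldn11* was at -0.31 and *Ptn*, found too seldom to be compared, had 0.124 against 0.796 reads per 10000.

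By function, few listed genes parted the marker-low *Lyve1*+ cells from all other cells, beside 1.29% higher and 1.67% lower among all genes. The matrix list had 5 higher (*Tgfbi*, *Fgl2*, *Reln*, *Col4a1* and *Timp3*) and 4 lower (*Sparc*, *Thbs1*, *Postn* and *Bgn*) of 31 compared, with a median log2 ratio of 0.08. Of these, *Col4a1* was at 0.29 without its highest marker-low *Lyve1*+ cell, and *Thbs1* at -0.28 without its highest other cell. The chemokine and leukocyte traffic list had 4 higher of 15: *Ccl21a*, the ligand that draws dendritic cells to lymphatics (0.34), *Cxcl12* (0.33), the chemokine scavenger *Ackr2* (0.34) and the sphingosine kinase gene *Sphk1* (0.38). *Ackr3* was the lower gene of that list. Without the highest marker-low *Lyve1*+ cell of each gene, *Ccl21a* and *Sphk1* were both at 0.31, but *Ackr2* (0.25) and *Cxcl12* (0.22) fell under the limit. *Cxcl12* was found in 35.4% of the marker-low *Lyve1*+ cells and 28.7% of the others, so it was compared only through the former. *Ccl21a* was found in 90.8% (84.4–95.1%) of the marker-low *Lyve1*+ cells and 77.1% (73.8–80.1%) of the others (81.7% and 61.3% after thinning). Against the other *Lyve1*+ cells, *Sphk1* (0.44) was the sole higher gene of 14 in the chemokine list, with *Ccl21a* at -0.04, *Cxcl12* at 0.23 and *Ackr2* at -0.23. In the matrix list *Fgl2* and *Timp3* (0.40) were higher there and *Tnc*, *Sparc*, *Thbs1* and *Igfbp4* were lower, with *Col4a1* at -0.07.

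Among receptors of hyaluronan and scavengers, 1 of 6 compared genes was past the limit, *Scarf1* at -0.36. Of 8 complement genes compared, *Clu* was lower and none was higher. Of 15 pan-LEC genes, *Ccl21a* was higher and *Tek* was lower, with a median of 0.08. The valve list had *Cldn11* and *Adm* lower of 10, and 29 transcription factors had *Erg* (-0.33) and *Id1* (-0.35) lower and none higher. *Piezo2*, a mechanosensitive channel gene listed for *Ptx3*- capillary LECs, was found in 55.4% (46.4–64.1%) of the marker-low *Lyve1*+ cells and 30.5% (27.1–34.005%) of the others (39.2% and 18.03% after thinning), with a log2 ratio of 0.32. Its ratio was -0.10 against the other *Lyve1*+ cells, 0.37 against the *Stab2*+ cells and -0.48 against the *Fndc1*+*Lyve1*+ cells.

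Markers of other cell types were low. *Ptprc* (CD45) was found in 0 of 130 marker-low *Lyve1*+ cells, which allows a share of cells with its reads of up to 2.31% (3 counts of the total), and in none of the other cells. It was also at 0 in the 2 wells with macrophage genes described next, so its absence sets no limit on cells that carry CD45. No *Epcam*, *Col1a1*, *Pdgfrb* or *Cd3e* read was found in the marker-low *Lyve1*+ cells, and the summed level of 5 fibroblast genes ran from 0 to 4.46 reads per 10000 (0 to 134.6 in the other cells). Because *Lyve1* is also carried by tissue macrophages, 8 macrophage genes were examined. At least 2 of them were above 1 in 2 of the 130 marker-low *Lyve1*+ wells (1.54%, 0.187–5.45%) and in 0 of the other wells, which allows up to 0.421% (3 counts of the total). Any read of these genes other than *Cd68* was found in 4.62% (1.71–9.78%) of the marker-low *Lyve1*+ wells and 4.49% (3.09–6.29%) of the others. The summed level of the 8 genes had a median of 0 in both groups, with highest values of 54.2 and 10.2 reads per 10000.

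Both of these wells also held LEC genes. The first had ln values of 2.41 for *Csf1r*, 2.57 for *C1qa* and 1.13 for *Cd163*, beside 4.19 for *Lyve1*, 1.26 for *Prox1* and 3.58 for *Mmrn1*. The second had 3.22 for *Csf1r*, 5.53 for *Lyz2* and 7.13 for *Apoe*, beside 1.72 for *Lyve1*, 0.866 for *Prox1* and 2.41 for *Mmrn1*, and it is the cell that held 83.3% of *Apoe*. Without these 2 wells, 72 genes were higher and 91 lower, and 66 of the 71 and 87 of the 92 genes were still counted. The log2 ratio of *Apoe* was then -1.52, while *Slco2b1* was at 0.84, *Fgl2* at 0.61, *Reln* at 0.60 and *Clu* at -1.35. Reads of *Xist* together with a Y chromosome gene, which a single cell should not hold, were found in 52 of all wells, and 14 of these were marker-low *Lyve1*+ wells. The marker-low *Lyve1*+ cells are 15.4% of all cells, so wells with both reads were more frequent among them than among the others. No doublet caller was run, and without those wells 1.61% of 5393 genes were higher and 1.93% lower.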

How the data were processed

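Values were deposited by the authors as a matrix of 23168 genes and 842 adult cells (1536 wells listed). Per the paper's methods, reads were aligned to mm10 with STAR, counted per gene with featureCounts, and normalized in Seurat 4.1.0 after removal of cells with fewer than 2000 genes or with mitochondrial reads above 10%. The deposited values are on a natural log scale, ln(1 + reads per 10000). The methods name log2, but sums of 10000 per cell arise with the natural log and not with powers of 2 (3407 to 5019). Strandedness, the handling of multi-mapped reads and the annotation: not given in the sources used here. Reads were recovered as whole numbers (within 0.01) for 100% of values, with 7433 to 3524358 reads per cell. Smart-seq3 reads counted this way are not independent molecules.

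Cells were grouped by the limits given for 4 genes: 130 marker-low *Lyve1*+ cells and 712 others, of which 263 were *Stab2*+, 103 *Fndc1*+*Lyve1*+, 141 *Igfbp5*-high *Lyve1*-low, 167 low in all 4 and 277 other *Lyve1*+ cells. The cell rule and all gene lists were chosen with earlier results of these data known. The genes named were the label's genes, subtype genes of the study, and the 12 highest and 12 lowest ratios against all other cells. Also named were the 6 highest and 6 lowest against each of 4 like groups, and for each list the 2 highest, the 2 lowest and those past the limit. *H19*, *Aqp1*, *Gdf15*, *Piezo2*, the correlated genes and genes leading against the other *Lyve1*+ cells were also named after their values were seen. Ratios used a pseudocount of 1 read per 10000, a limit of 0.3 on the log2 scale and a detection share of 30%, and were tested on simulated data. Reads were thinned to 20000 per cell with seed 1. Alternatives changed the pseudocount, measure, filter, depth, cells, comparison group and each limit. With 1 sample, no test, replicate or batch comparison could be made. Coordinates come from GENCODE M21 (GRCm38), in which all 102 genes looked up matched. Python 3.11.15, NumPy 2.4.6, pandas 2.3.3, SciPy 1.17.1 and Matplotlib 3.10.9 were used.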

Additional observations from a re-analysis of the deposited data

How the results depend on the processing

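No paired analysis was possible because all cells are 1 sample and no replicate numbers pair any groups. The shares of higher and lower genes against all other cells (1.29% and 1.67% of those compared) depended most on the pseudocount and the measure. They were 10.1% and 12.98% with a pseudocount of 0.1, 0.199% and 0.235% by the difference of mean ln values (11 and 13 genes, of which 10 and 12 were among the 71 and 92), and 3.28% and 3.59% from summed reads. They were 0.385% and 0.469% of 22835 genes with no detection filter, and 3.01% and 3.55% of fewer genes when found meant a value above 1. Without *Stab2*+ cells in the comparison they were 3.46% and 2.83%, and without the highest marker-low *Lyve1*+ cell of each gene 0.525% and 2.66%; this last alternative was chosen after seeing the data, as were those without the highest other cell and without the macrophage wells. After thinning 2.41% of genes were higher, and with *Lyve1* above 2 it was 1.95%. Under the other settings both shares were within 1.5 times of the main ones, and the other cell limits took in 11.5% to 20.4% of all cells.

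The share of cells with *Foxp2* was 16.2% of marker-low *Lyve1*+ cells and 17.98% of the others for values above 1, 38.3% and 47.1% after thinning, and 68.6% of the others with at least 3000 genes. The marker-low *Lyve1*+ cells were lower than all other cells in each setting run, but no setting changed the comparison group. In the other *Lyve1*+ cells the share was 51.99%, and 32.9% after thinning, so the marker-low *Lyve1*+ cells were not lower than these. Among 28 named genes under the alternatives, 9 values of genes past the limit turned in direction. *Apoe* was at -0.35 by the ln difference, -0.40 from summed reads, -1.52 without the macrophage wells, -1.29 without its highest cell and -1.89 with *Lyve1* above 2. *Sparc* was at 0.33 without *Stab2*+ cells and *Tppp3* at 0.21 without *Fndc1*+ cells. Against the other *Lyve1*+ cells, *Cyp4b1* was at -0.14 and *Clca3a1* at 0.01. Of 31 other values that crossed the limit of 0.3, 1 also turned (*Tnc*, from 0.08 to -0.32 against the other *Lyve1*+ cells). A further 8 values of *Tnc*, *C3* and *Foxp2* turned while under the limit in both settings, *Foxp2* to 0.06 without *Igfbp5*-high cells and 0.21 against the other *Lyve1*+ cells. The cause was not tested. Depth limits genes at few reads: 51 cells had under 20000 reads.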

Other observations

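Of 10 compared genes of a type I interferon list, none was past a log2 ratio of 0.3 against all other cells, beside 1.29% higher and 1.67% lower among all genes compared, and the median was -0.09. *Stat2*, a signal transducer of that list, was found in 43.8% of the marker-low *Lyve1*+ cells and 64.5% of the others (33.3% and 46.1% after thinning). Outside the list, the interferon-inducible genes *Xaf1* (-0.41), *Iigp1* (-0.36) and *Irgm1* (-0.35), named after their values were seen, were lower. The summed level of 19 listed genes had a median of 12.3 reads per 10000 (0.110–83.6) against 12.2 (0–177.7), and *Isg15*, an early interferon-induced gene, was above 1 in 31.5% (23.7–40.3%) and 34.7% (31.2–38.3%) of cells. The summed level of 22 immediate early and dissociation genes had a median of 268.2 (2.01–1016.5) against 267.4 (2.17–1186.2), a spread over cells far wider than the difference. Summed cell cycle genes were low in both groups, with medians of 1.46 and 1.69, and *Birc5*, a gene of dividing cells, had no read in the marker-low *Lyve1*+ cells.

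Genes usually linked with blood endothelium were found in LECs of both kinds. Of 3 compared, beside the same 1.29% and 1.67% over all genes, *Gpihbp1* was higher in the marker-low *Lyve1*+ cells (log2 ratio 0.45) and the fenestral diaphragm gene *Plvap* (-0.34) and the sialomucin gene *Emcn* (-0.35) were lower, while *Ly6c1* had no read in them. Against the other *Lyve1*+ cells none of these 3 was past the limit, with *Gpihbp1* at -0.08, *Plvap* at -0.15 and *Emcn* at -0.25. The summed level of 6 such genes had a median of 9.24 (0–63.4) against 10.03 (0–67.7) in all other cells.

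*Cd74*, the invariant chain of MHC class II, was found in 17.7% of the marker-low *Lyve1*+ cells and 13.2% of the others, and 81.9% of its sum in the former came from 1 cell, which is the second of the wells with macrophage genes. Its mean was 3.08 against 0.442 reads per 10000, and the log2 ratio was 0.12 without that cell and -0.13 without both such wells.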
